A study of Drosophila melanogaster with 12 samples.

Results

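The profile described here is Polycomb over Dam in the larval fat body of Drosophila melanogaster, given as 1 log2 score per GATC fragment. Its members are all fragments with a score in the fat body column of the deposited table, 152409 of 356504 (42.8%). Of these, 151059 lie on the 6 chromosome arms 2L, 2R, 3L, 3R, 4 and X, to which every value below refers unless heterochromatic scaffolds are named. A score is the log2 ratio of Dam-Polycomb to Dam only, averaged by the authors over 2 biological replicates, so that a score of 3 marks strong enrichment of Polycomb and a score of -2 marks depletion. Replicate values were not analysed here, so each SD below describes how fragments of a region scatter and says nothing about animals. The read depth behind a score is unknown, and no test between conditions was run on the averaged scores.

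DamID fuses a bacterial adenine methyltransferase (Dam) to a chromatin protein, and the fusion methylates GATC sites near the places where that protein sits, while Dam alone records the accessible chromatin. Polycomb is a chromodomain subunit of the Polycomb repressive complexes. It is recruited to response elements and spreads over broad domains marked by trimethylated lysine 27 of histone H3, which keeps developmental regulators such as the Hox genes silent where they are not needed. The larval fat body is the storage and endocrine organ of the larva, broadly comparable to liver and adipose tissue. Its cells grow by repeated DNA replication without division and become polyploid, and in such cells some late-replicating regions are known to be copied less often than the rest.

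The fat body groups were Dam only and Dam-Polycomb, with 2 samples each and 10 larvae per sample. Larvae were wandering males of the third instar. In a y,w background they carried an M{FL.hsp70P} transgene at ZH51C, which encodes Dam with the 4-HT-intein inserted at L127C, either alone or joined to PC (Polycomb). They were raised at 25°C on food with 25 µM 4-hydroxytamoxifen, which induces the intein-carrying Dam. The hsp70 promoter is not specific to a tissue, so the tissue was set by dissection, and the profile holds no marker against which the label could be checked. The backdrop profiles were the central brain without the ventral nerve cord, from males of the same genotypes with the system uninduced, and repo+ glia. The glial larvae, of both sexes pooled, were y,w/w with repoFlp5 and an M{min.hsp70P} transgene at ZH51C. There a STOP#1 cassette stands before Dam or Dam-PC until a recombinase driven by repo removes it. The central brain and glia samples held 20 larvae each, raised at 25°C without 4-hydroxytamoxifen. Tissue and induction change together between fat body and brain. Between fat body and glia, tissue, tamoxifen treatment, DamID system and sex change together. In neither pair can these be told apart.

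The fat body profile was centred close to 0. The median score was 0.11, with an interquartile range of 2.71 and an SD of 1.99 over fragments, and the scores ran from -7.83 to 9.58. Scores above 3 were held by 11528 fragments (7.63%), against 11.8% in brain and 5.9% in glia. Scores below -2 were held by 21589 fragments (14.3%), against 32.4% in brain and 23.3% in glia. The other 117942 fragments lay between these limits. These shares depend on where each profile is centred. With its own median subtracted from each profile, the share above 3 was 6.93% for the fat body, 16.0% for brain and 8.00% for glia, so the fat body moved from above glia to below it. The share below -2 was then 15.7% for the fat body, 14.8% for brain and 16.5% for glia, and the lower share of the fat body was gone. Neither limit falls at a gap in the scores. There were 1081 fragments from 2.9 to 3.0 and 980 from 3.0 to 3.1, and 1917 from -2.1 to -2.0 and 1882 from -2.0 to -1.9.

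Levels differed little between the large arms and more on the small chromosome 4. The median was 0.14 on 2L, -0.07 on 2R, 0.18 on 3L and 0.13 on 3R, an SD of 0.11 over these 4 arms. It was 0.24 on X, which lies 0.15 above the pooled large autosomal arms, and -0.49 on chromosome 4, the small and largely heterochromatic autosome. The order of X and 3L rests on a difference smaller than the spread between autosomal arms, whereas chromosome 4 lay below all of them. X also had the wider distribution, with an interquartile range of 2.93 against 2.63 to 2.68 on the large autosomal arms. The upper tail followed the same order of arms only in part. Scores above 3 made up 9.25% of scored fragments on X and 8.97% on chromosome 4, against 6.41% on 2R to 7.73% on 3R. Scores below -2 made up 20.2% on chromosome 4 and 13.3% (3L) to 15.4% (2R) on the others, X among them at 14.8%.

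The score also moved with the length of the GATC fragment, a property of the restriction map and not of Polycomb. Fragments of at most 50 bp were scored in 4.77% of cases and those of 1000 to 2000 bp in 83.8%. The median score was 0.32 for fragments of 300 to 500 bp, -0.33 for 1000 to 2000 bp and -1.11 for those over 5000 bp. No scored fragment over 5000 bp (109 fragments, 67.0% scored) lay above 3, against 9.26% at 300 to 500 bp. The part of fragment length in the results that follow was not tested except where a length limit of 200 to 2000 bp is named.

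Along the arms the fat body score rose and fell on a scale of kilobases. In 1191 windows of 100 kb with at least 20 scored fragments, window medians ran from -2.13 to 4.52 with an SD of 0.95, while the interquartile range inside a window had a median of 2.23. The window medians themselves had quartiles of -0.468 and 0.685, so by the same measure scores inside a window were more spread. A median over at least 20 scores varies less than single scores do by construction. Only 53 windows had a median over 2, and 115 had one under -1. X had the largest SD of window medians among the 6 arms, 1.05, against 0.67 on chromosome 4 and 0.87 to 0.95 elsewhere.

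**Figure D1:**
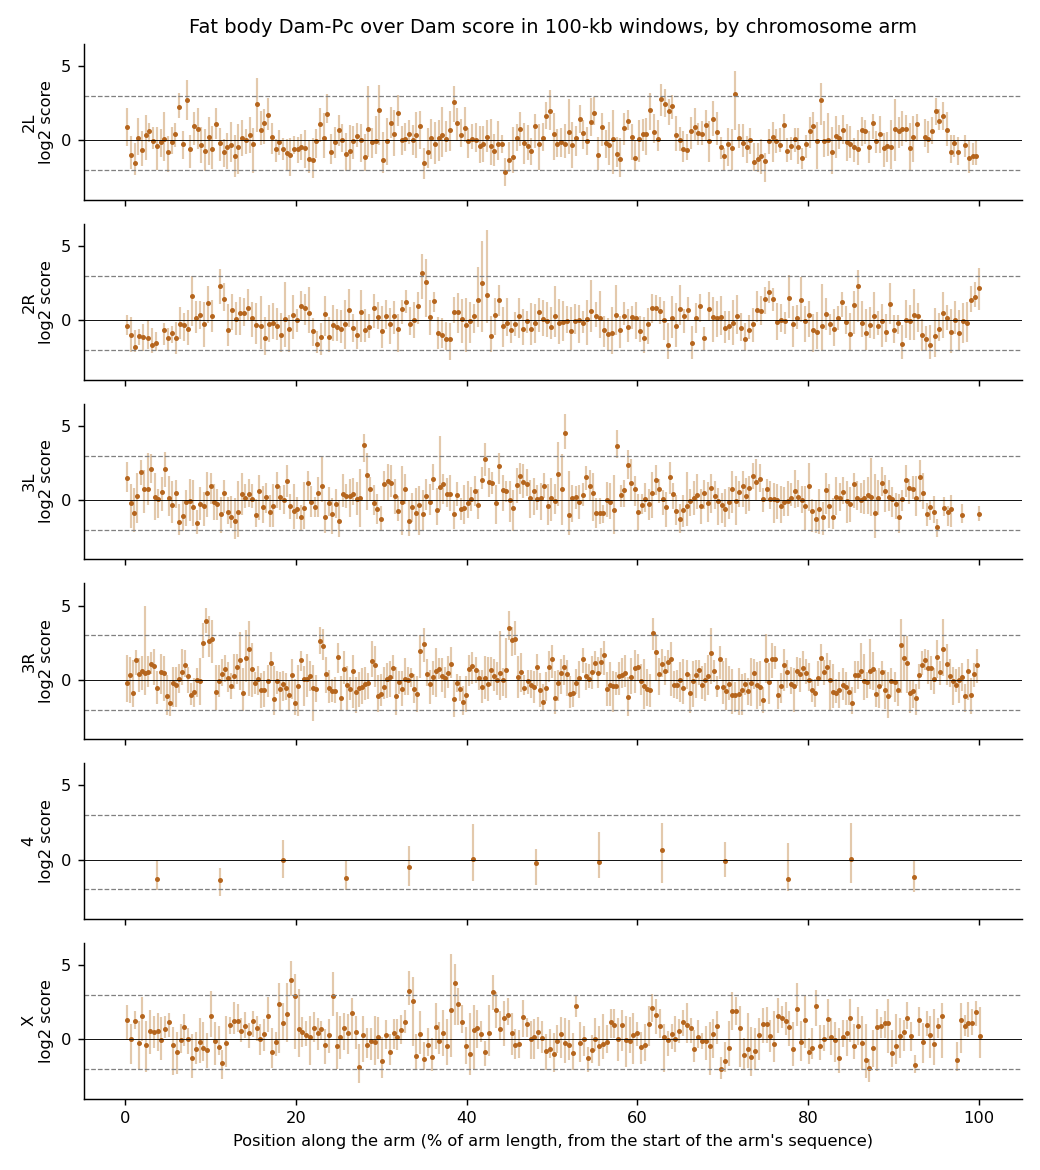
Median fat body score (points) and its quartiles (bars) in 100-kb windows with at least 20 scored fragments, against position as a percentage of arm length, 1 panel per arm, with dashed lines at 3 and -2. A few isolated windows rise above 3, up to 4.52 on 3L, on a field of medians near 0, and only 2 windows have a median below -2.

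The highest windows stood far above their surroundings. The window on 3L from 12600001 to 12700000 had a median of 4.52 (quartiles 3.42 and 5.80, 119 scored fragments), with 81.5% of its scores above 3. It was followed by X from 4300001 (4.03), 3R from 2600001 (3.94), X from 8600001 (3.77) and 3L from 6800001 (3.71). All 5 were also high in brain (medians 3.27 to 5.07) and glia (2.33 to 4.24). The window on 3R lies in the Antennapedia complex, the Hox gene cluster for head and anterior thorax, placed here from general knowledge of release 5 and not from an annotation. The lowest windows were 2L from 10200001 (-2.13), X from 15600001 (-2.03), X from 19500001 (-1.93), X from 6100001 (-1.89) and 3L from 23300001 (-1.80). These were low in brain (-5.40 to -3.11) and glia (-3.59 to -2.30) too. In 4 of the 5 lowest windows the fat body had a score for 73.1% to 93.9% of the fragments of 200 to 2000 bp, against 14.0% to 39.9% in brain.

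Neighbouring fragments were less alike in the fat body than in either other profile. The correlation of each scored fragment with the next scored one was 0.735 in fat body (151053 pairs), 0.883 in brain and 0.827 in glia. With distance the fat body value fell from 0.814 for fragments up to 0.5 kb apart to 0.473 at 2 to 5 kb, 0.201 at 10 to 20 kb and 0.060 at 50 to 100 kb. At 10 to 20 kb it was 0.591 in brain and 0.385 in glia. These are descriptions of 1 averaged profile each. Fragments share libraries, and scatter between replicates cannot be told apart from change along the chromosome in them.

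Strong enrichment in the fat body came as many short runs. A run above 3 is defined as at least 3 scored fragments in genome order, all above 3, with unscored gaps of up to 2 kb bridged. There were 955 such runs with a median length of 2.28 kb, together 3.44 Mb or 2.86% of the arms, and 65 of them were over 10 kb. They held 48.0% of the fragments above 3. Single fragments above 3, whose scored neighbours lay below it or beyond a longer gap, numbered 3943 and made up 66.6% of all unbroken series of any size. In brain 1065 runs covered 7.46 Mb with a median of 4.00 kb and held 90.1% of the fragments above 3, and single fragments made up 35.4% of series. In glia 983 runs covered 3.93 Mb with a median of 2.30 kb and held 79.1%. The fat body thus had about as many runs as the other profiles, but a smaller share of its high fragments in them. With each median subtracted that share was 48.0% for the fat body, 91.3% for brain and 78.7% for glia, over 879, 984 and 1028 runs.

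**Figure D2:**
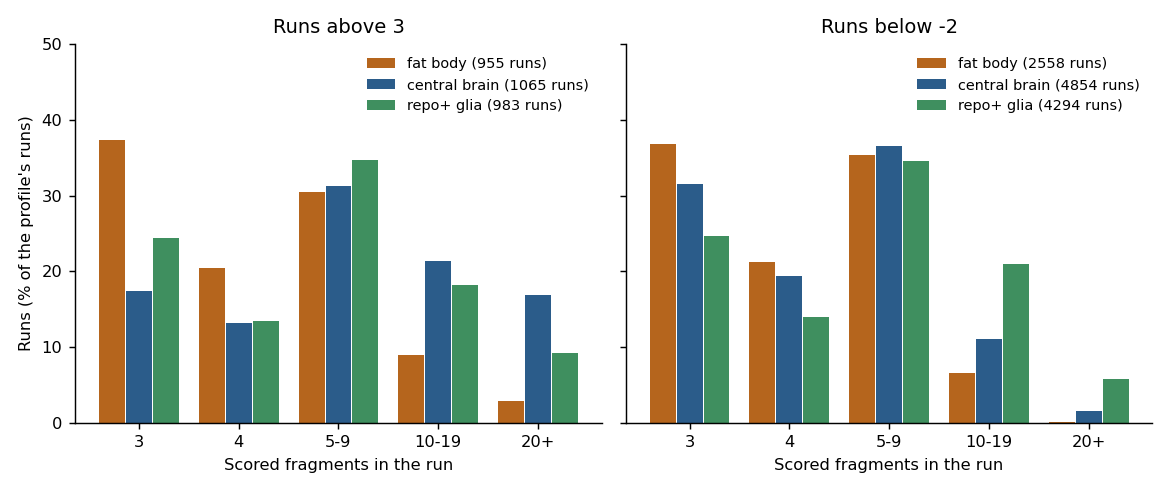
Runs above 3 (left) and below -2 (right) by the number of scored fragments they hold, as a percentage of the runs of each profile. Runs of 3 fragments make up 37.3% of fat body runs above 3, against 17.4% in brain and 24.4% in glia, and runs of 20 or more make up 2.93%, 16.8% and 9.26%.

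Runs above 3 occurred on every arm at 7.09 per Mb on 2R to 10.4 per Mb on chromosome 4, but their length was concentrated. Of 118 windows of 1 Mb, 20 held 50% of the total run length, and 3 had no run at all. Those 3 were 2R from 1 to 1000000, next to the centromere, 3L from 23000001 to 24000000, near the base of the arm, and X from 1000001 to 2000000, near the tip. Runs need scored fragments, and on 3L only 8 were scored from 23400001 to 23500000 and 6 from 23800001 to 23900000. From 23300001 to 23400000 there were 55, with 0% above 3. On 2R, 7 of 10 windows with few scores (defined below) lay within 2 Mb of the base. Whether missing scores account for the absence of runs was not tested. Most run length lay in 3R from 2000001 to 3000000, with 26 runs of together 168 kb. It was followed by 3R from 12000001 (27 runs, 154 kb), X from 4000001 (28 runs, 147 kb) and 3L from 12000001 (25 runs, 146 kb). In the first of these the median run was 4.52 kb and the longest 19.9 kb, so the stretch was broken into pieces in the fat body. Over the fragments of those 26 runs the fat body averaged 4.76, the brain 5.63 and glia 4.36. From one run above 3 to the next on the same arm the median gap was 15.9 kb, and 43.1% of gaps were within 10 kb.

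The longest run above 3 lay on 3L from 12635957 to 12684267 (dm3). It spanned 48.3 kb with 53 scored of 132 fragments, a mean of 5.32 (SD along the run 1.07) and a highest score of 7.72. In bins of 10 kb its mean was 5.05 to 5.60 over the 4 full bins inside it. The part bins at its ends had means of 3.71 (4 scored fragments) and 6.03 (3 scored fragments). Every score in a run is above 3 by definition, which limits how low these means can be. Brain (4.41) and glia (4.40) were high over the same fragments and scored more of them, 80 and 86.

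Other long runs lie in textbook Polycomb targets. The run on 3R from 12588100 to 12616203 (28.1 kb, mean 5.09, SD 1.23, 29 scored fragments) lies in the bithorax complex, the Hox cluster for posterior thorax and abdomen. Brain had a mean of 6.18 and glia 5.14 over it. Runs on 2R from 7349846 to 7377755 (27.9 kb, mean 5.49, SD 1.42) and from 7405945 to 7432532 (26.6 kb, mean 4.95, SD 1.52) lie in the region of invected and engrailed, paired homeobox genes of segment polarity. Brain means were 6.34 and 6.75 there, and glial means 4.04 and 4.46. The run on 3R from 2705967 to 2725898 (19.9 kb) lies in the Antennapedia complex and had the highest mean of the 10 longest runs, 5.97 (SD 1.14), with 5.41 in brain and 5.38 in glia. These landmarks were placed from general knowledge of release 5, not from an annotation analysed here. Over each of these 4 runs the means of all 3 profiles were above 4.

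The remaining runs among the 10 longest are given by position. They were 2L from 16462939 to 16490739 (27.8 kb, mean 4.99), 3R from 12217276 to 12239195 (21.9 kb, 4.59), X from 4497220 to 4517695 (20.5 kb, 5.29), 3R from 20902016 to 20922476 (20.5 kb, 5.20) and 2R from 8771393 to 8790661 (19.3 kb, 5.72). The run on 2L, with 47 scored fragments, had means of 3.60 for brain and 3.73 for glia, and that on 3R from 12217276 had 6.45 for brain. The longest run on chromosome 4 lay from 516094 to 531590 (15.5 kb, 22 scored fragments). It averaged 4.86 (SD 1.22) in the fat body, against 3.65 for brain and 0.92 for glia.

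Most long runs of the fat body were high in the other profiles as well, where 11.8% (brain) and 5.9% (glia) of scored fragments lay above 3. Of the 113 runs with at least 10 scored fragments, 100 had a brain mean above 3, 92 a glial mean above 3 and 91 both. Under both profile medians (-1.22 in brain, -0.58 in glia) lay 3, and these were chosen after their values were seen. On 3R from 12454780 to 12463038 the fat body averaged 5.18 (SD 1.01, 13 fragments), whereas brain averaged -1.47 over 13 fragments and glia -1.78 over 17. On X from 2240270 to 2246713 it was 5.14 (SD 1.23, 14 fragments), -1.32 and -0.66. On X from 21244953 to 21255751, a run of 24 scored fragments 1.18 Mb from the end of the arm sequence at its base, it was 5.81 (SD 1.26), -4.09 and -1.55. The brain means of the last pair rested on 10 fragments each. Short runs were shared less often. Of all 955 runs, 732 had at least 3 scores in both other profiles. Of these, 400 (brain), 345 (glia) and 310 (both) had means above 3, while 15 lay under both medians. The share of all fragments under both medians was not counted, so the numbers of such runs have no backdrop.

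Runs of the fat body often sat inside wider enrichment of the other profiles. Over the 113 long runs the median of the difference between the run and its flanks of 5 kb on either side was 2.00 for the fat body, 0.78 for brain and 0.71 for glia. The fat body value follows from the definition of a run. In brain the flanks themselves had a median of 4.13 and in glia 3.40, against 2.96 in fat body. Inside the long runs the fat body was also the profile with the fewest scores, 77.4% of the fragments of 200 to 2000 bp, against 91.9% in brain and 97.4% in glia.

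Runs below -2 outnumbered runs above 3 and were of like median length, but few of them were long. The 2 limits are not alike, since 14.3% of fragments lay below -2 and 7.63% above 3. At limits of equal size the order was the other way, with 1586 runs above 2.5 and 1374 below -2.5. There were 2558 runs below -2 by the same definition, with a median length of 2.33 kb, together 7.04 Mb or 5.85% of the arms. They held 59.0% of the fragments below -2. Only 3 of them had 20 or more scored fragments and 11 were over 10 kb. As deposited, brain had 4854 such runs (25.9 Mb) and glia 4294 (20.3 Mb), profiles whose medians lie lower. With each median subtracted the fat body had 2814 runs (8.05 Mb), brain 2210 (10.2 Mb) and glia 3407 (14.1 Mb). The fat body then had more runs than brain, over a smaller total length. Chromosome 4 had the densest set in fat body, 31.8 per Mb and 9.98% of its length, against 18.7 (3L) to 25.0 (2R) per Mb elsewhere. Their median gap was 8.11 kb.

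The longest run below -2 lay on 3R from 6137725 to 6155543. It spanned 17.8 kb with 36 scored of 50 fragments, a mean of -3.41 (SD 0.71) and scores from -5.88 to -2.08. Brain was at -5.84 and glia at -5.04 over it. The next were 3L from 3224436 to 3236867 (12.4 kb, mean -3.33), 3R from 8233568 to 8244890 (11.3 kb, -3.72), 3R from 9946586 to 9957758 (11.2 kb, -2.85) and 2L from 6588086 to 6598971 (10.9 kb, -3.35). The last of these held only 7 scored fragments, all of them long. On X no run below -2 reached 10 kb, and its longest, from 4822462 to 4831835 (9.37 kb), held 3 scored fragments.

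Long depleted runs were low in brain and glia too, where 32.4% and 23.3% of scored fragments lay below -2. Of 171 fat body runs below -2 with at least 10 scored fragments, 110 had at least 3 scores in both other profiles, and 106 of these had means below -2 in both and 108 had means under both profile medians. The other 61 had too few scores in brain or glia. Over the 171 runs the fat body had scores for 88.7% of the fragments of 200 to 2000 bp, glia for 76.7% and brain for 30.1%. Over the 6 arms these shares were 72.8%, 84.3% and 63.8%. The fat body share is partly set by the definition of a run, which needs fat body scores, and those of brain and glia are not. Inside the enriched runs, defined in the same way, brain had scores more often than the fat body.

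Local peaks give the places of highest enrichment regardless of run length. A peak is a mean over 5 consecutive scored fragments within 10 kb that is at least 3 and the highest within 10 kb on either side. There were 816, with a median height of 3.69. Of these, 135 were over 5 and 68 over 6, and 457 had their centre inside a run above 3. X held 181 of them, 8.07 per Mb, against 5.18 per Mb on chromosome 4 and 6.15 (2R) to 6.80 (3L) per Mb on the large autosomal arms. The median spacing was 54.6 kb on X and 68.4 kb overall. The stretch over which the running mean stayed at or above 50% of the peak height had a median of 13.2 kb, and 16.1 kb on X.

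The highest peak lay on X from 4307461 to 4313729, with a height of 7.82 (SD over its 5 fragments 0.75), 4.22 in brain and 4.55 in glia. It lies in the second highest of the 100-kb windows. The next were 2R from 8922080 to 8925070 (7.53), 3L from 624051 to 625672 (7.36), 3R from 17206426 to 17210546 (7.33) and 3R from 4008306 to 4011506 (7.28). The sixth, on 2R from 7415162 to 7419121 (7.23), lies in the long run at engrailed and invected and was as high in brain, at 7.19. Heights of the 10 highest peaks ran from 7.13 to 7.82 with SDs over their fragments of 0.75 to 2.04, so their order is not resolved. All 10 lay inside runs above 3, and all 10 were above 3 in both other profiles, with brain at 4.22 to 7.39 and glia at 3.88 to 6.32.

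Higher fat body peaks were shared with the other profiles more often. Of peaks from 3 to 4 in height with at least 3 scores in both other profiles (395), 24.3% had a brain mean above 3 and 15.2% a glial mean above 3. From 4 to 5 (146 peaks) the shares were 43.2% and 34.9%, from 5 to 6 (65 peaks) 76.9% and 75.4%, and at 6 or more (67 peaks) 95.5% and 88.1%. Across all fragments the shares above 3 were 11.8% in brain and 5.9% in glia. The low peaks were also narrower, with a median width of 14.9 kb from 4 to 5 against 28.9 kb at 6 or more. Of the 673 peaks that could be compared, 22 lay under both profile medians. The share of all fragments under both medians was not counted, so this number has no backdrop.

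**Figure D3:**
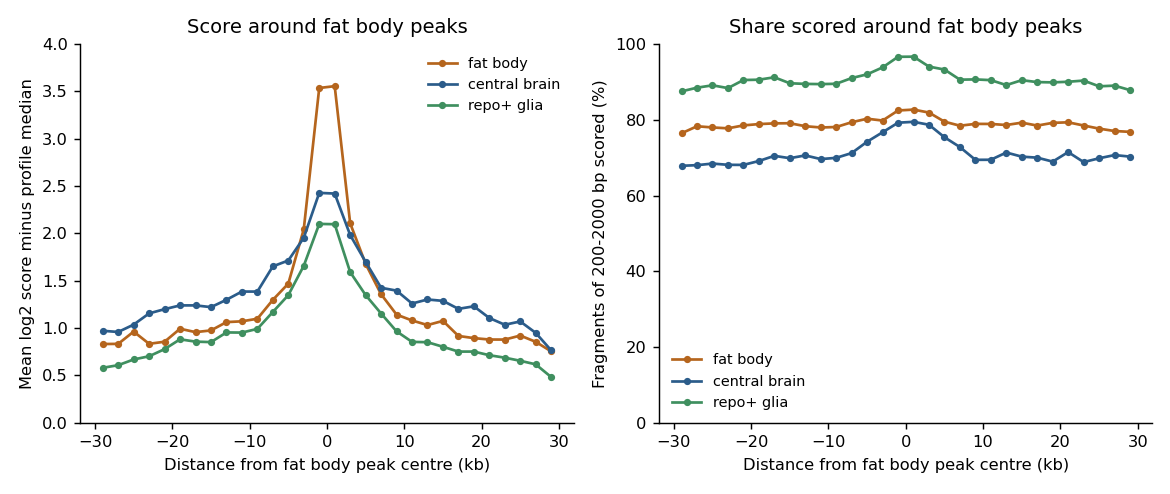
Left, mean score minus the profile's median, by distance in kb from the centre of 816 fat body peaks, in bins of 2 kb for the 3 profiles; right, the percentage of fragments of 200 to 2000 bp with a score. The fat body value at the centre (3.54 and 3.55 in the central bins) follows from how peaks were chosen; brain rises to 2.43 and glia to 2.10 at the same place, and the 3 profiles lie at 0.48 to 0.76 from 28 to 30 kb.

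Around the peaks the fat body signal was the steepest. Its mean fell from 3.55 over the profile median in the central bin to 1.68 at 4 to 6 kb, while brain went from 2.42 to 1.70 and glia from 2.10 to 1.35. From 4 kb outwards brain lay at least as high over its median as the fat body over its own. The shape of the fat body curve at the centre is fixed by the choice of peaks, and that of the others is not. The share of fragments with a score stayed near 80% in fat body throughout (76.4% to 82.7%), while in brain it rose from 67.8% at the left edge to 79.4% at the centre.

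Whole stretches of the arms had no fat body score. There were 906 stretches of at least 5 kb without a fat body score, together 8.93 Mb or 7.42% of the arms, with a median length of 7.25 kb. Brain had 1197 such stretches (11.2 Mb) and glia 548 (5.38 Mb). They were most frequent on X, with 243 stretches and 10.3% of the arm, and on 2L, with 203 and 8.64%. On 3R there were 127 and 3.54%, the least of the 6 arms, and chromosome 4 had 9 that made up 12.5% of it. Of the 906, 248 had no score in brain or glia either, and 198 lay within 2 Mb of the base of a large arm.

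The longest missing stretches lay at or near the bases of the arms and were nearly empty in the other profiles too. They were X from 21511299 to 21681542 (170 kb), 2L from 21415532 to 21557107 (142 kb), 3L from 24359532 to 24484954 (125 kb), X from 21683656 to 21807281 (124 kb) and 2R from 2229450 to 2337689 (108 kb). In these 5 the brain had a score for at most 2.49% and glia for at most 11.9% of the fragments of 200 to 2000 bp. From general knowledge of release 5, and named after the positions were seen, the stretch on 2L holds the tandem repeats of the histone genes and that on 2R lies in the piRNA cluster at 42AB, a repeat-rich locus that gives rise to small RNAs against transposons. Further out lay 2L from 15653368 to 15727520 (74.2 kb) and 3L from 19703165 to 19768852 (65.7 kb), with no score in any profile. The longest on 3R, from 8294229 to 8325904, was only 31.7 kb and also empty in all 3. The first 60.5 kb of chromosome 4 had no fat body score either.

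In windows of 100 kb the same regions stood out. Over the 6 arms 72.8% of fragments of 200 to 2000 bp had a fat body score. A window was counted as having few scores where this share was under 36.4%, and 44 of 1206 windows were, 32 of them within 2 Mb of the base. They lay on 3L (16), 2R (10), 2L (9), X (7) and chromosome 4 (2), and none on 3R, where the lowest window had 38.0%. In 6 of the 44, 3 on X and 3 on 2L, both brain and glia were above the limit. The clearest was 2L from 17000001 to 17100000, with scores for 26.5% of 83 fragments in the fat body, against 97.6% for brain and 89.2% for glia. On X the windows from 2700001 (24.3% in fat body, 66.7% in brain, 69.4% in glia) and from 14200001 (29.0%, 79.6% and 72.0%) followed.

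**Figure D4:**
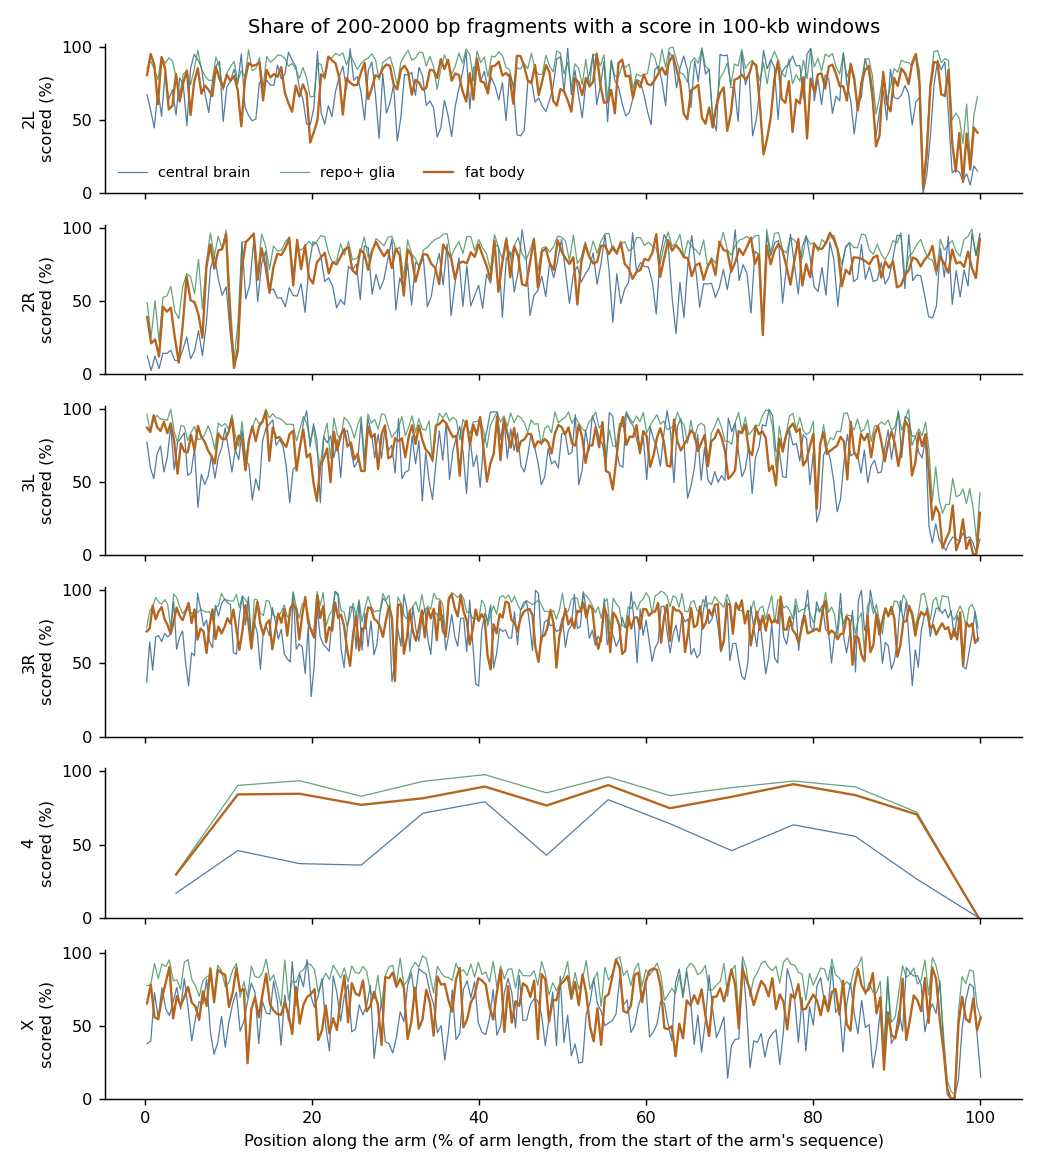
Percentage of fragments of 200 to 2000 bp with a score in 100-kb windows against position as a percentage of arm length, 1 panel per arm, for fat body (thick line), central brain and repo+ glia. All 3 profiles drop together at the bases of 2L, 2R, 3L and X but not at that of 3R, and the fat body alone drops in a few windows such as 1 on 2L at 26.5%.

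Some stretches were missing in the fat body but well covered in the others. Of the 906, 94 (0.724 Mb) held at least 5 fragments of 200 to 2000 bp of which at least 50% were scored in brain and at least 50% in glia. X held 50 of them, 2L 22, 3L 9, 3R 8, 2R 5 and chromosome 4 none. The longest lay on 2L from 17059585 to 17076236 (16.7 kb), where brain had a mean of 0.02 and glia -1.12. Next were 2L from 16114067 to 16128775 (14.7 kb), X from 14169754 to 14183917 (14.2 kb) and X from 20468147 to 20481063 (12.9 kb). The last had a brain mean of 3.97 over 13 fragments. Brain means were above 3 in 8 of the 94 and glial means in 4. Over the arms 11.8% and 5.9% of single fragments lay above 3, but a mean over several fragments is another measure.

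Among fragments scored in both other profiles, the fat body lacked scores most often on X. Of 97193 such fragments, 85.1% had a fat body score. The share was 79.3% on X (95% exact interval 78.6 to 79.9), 84.4% on 2L, 86.0% on 3L, 86.1% on 3R, 88.1% on 2R and 94.1% on chromosome 4. These intervals cover counting over fragments only, and neighbouring fragments are not independent. Counted in the same way glia had 98.4%, and brain was also lower on X (67.3%) than on the large autosomal arms (73.6% to 78.7%). For glia X was no lower by this count, at 98.7% against 98.3% (2R) to 98.5% (3L) on the large autosomal arms. The glial shares lie near their upper limit, which leaves little room for a deficit. Among all fragments of an arm, glia had scores for 54.5% on X, against 57.0% (2R) to 61.6% (3R) on the large autosomal arms. The fat body had 39.6% on X, against 45.6% (3L) to 49.3% (3R). The fat body share among fragments scored in both other profiles was under 60% in 36 of 1176 windows of 100 kb. Of these, 17 lay on X, 11 on 2L, 4 on 3L and 4 on 3R. The fat body and brain samples came from males, which carry a single X, and the glial samples from both sexes. Tissue, tamoxifen treatment and DamID system differ as well, so these cannot be told apart.

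Whether a fragment had a fat body score also went with its Polycomb level in the other profiles. Among fragments of 200 to 2000 bp with a glial score of -4 or lower, 93.8% were scored in fat body. The share was 83.2% at glial scores of -1 to 0, 65.7% at 4 to 5 and 47.3% over 6 (95% exact interval 42.4 to 52.3, 410 fragments). In brain the share rose from 34.5% at -4 or lower to 80.0% at -1 to 0 and 91.9% at 3 to 4, and was lower again at 91.0%, 88.9% and 82.2% (95% exact interval 78.1 to 85.8) in the classes above that. Over 4 in glia the fat body had scores for 61.7% of 3494 fragments. Set against brain scores the fat body share did not fall steadily. It went from 96.9% at -4 or lower to 73.3% at 1 to 2, was 78.4% at 3 to 4 and was lowest over 6, at 67.4%. Among fragments scored in those profiles, fat body scores were thus missing most often where the glial or brain score was highest. The fragments that did have a score there were high, with a fat body median of 4.93 at glial scores over 6.

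**Figure D5:**
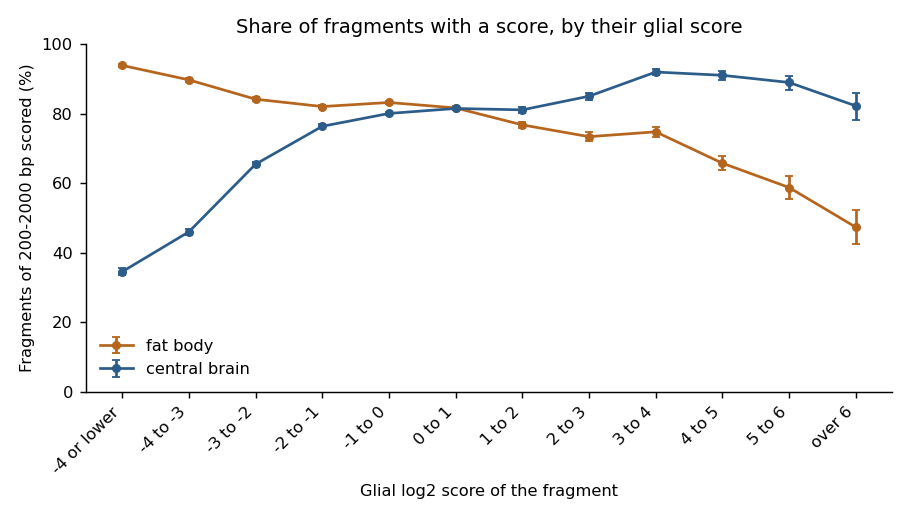
Percentage of fragments of 200 to 2000 bp that have a score in fat body and in central brain, by their glial log2 score, with 95% exact intervals that cover counting over fragments only. The fat body share falls from 93.8% to 47.3% as the glial score rises, and the brain share rises from 34.5% to 91.9% at 3 to 4 and is 82.2% over 6.

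The relation held in each length class and on each arm. For fragments of 200 to 300 bp the fat body share was 89.3% at glial scores of -4 or lower and 38.4% over 4, and for 300 to 500 bp it was 93.8% and 65.4%. For 500 to 1000 bp it was 96.1% and 77.2%, and for 1000 to 2000 bp 95.9% and 76.9%. Over 4 in glia it was 49.0% on X, 56.3% on 2L, 61.4% on 2R, 63.7% on 3L, 70.0% on chromosome 4 and 70.3% on 3R. At -4 or lower it was 92.3% to 99.2% on the 6 arms. The counts and lengths of fat body runs above 3 therefore cover scored fragments only. How the authors set scores to missing was not among the sources at hand, and what underlies this relation was not tested.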

How the data were processed

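Genomic DNA methylated by Dam or Dam-Polycomb was amplified by PCR and sequenced, per the labels' protocols. Tools in the submitters' processing notes are cutadapt, Bowtie2 and HTSeq, with dm3 as the build and no version. The authors deposited a log2 ratio of Dam-Polycomb to Dam only for each GATC fragment, as a mean of replicates, per the file headers and the design text, and 3 columns (fat body, brain, glia) were used. The base of the logarithm was checked on the values: 8863 fat body scores lay on 19 steps of a log2 ratio of small counts around the most frequent score, against 1877 and 2177 on those of natural and decimal logarithms. The rule behind missing scores was not given in the sources used here. Depth is unknown, since read counts were not analysed.

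Everything else was computed from these columns in Python 3.11.15 with numpy 2.4.6, pandas 2.3.3, scipy 1.17.1 and matplotlib 3.10.9. The procedures for runs, peaks and missing stretches were tested on simulated profiles. Those held planted runs far beyond the limits on weak independent noise. They check the procedures only and say nothing about errors of the calls in these data. Coordinates are dm3 (release 5), counted from 1. The gene table at hand describes release 6 and was not used, so regions are given by position, and gene lists set down for an annotated build were not run. Members, thresholds and lists were chosen with earlier results of these data known. Named regions are the 10 longest runs above 3, the 5 longest below -2, the 10 highest peaks, the 10 longest missing stretches, the longest of each arm, the 5 highest and 5 lowest windows by median and the windows with the fewest scores. A region named outside this rule is marked as chosen after its values were seen, or led its own list. Samples were grouped by GEO's labels, and only averaged profiles were compared, as descriptions without p-values.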

Additional observations from a re-analysis of the deposited data

How the results depend on the processing

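No paired analysis was possible because the columns analysed here are the authors' means over replicates, and for the same reason none of the replicates was left out. The offset of X above the large autosomal arms (0.15) was 0.12 to 0.23 under the alternatives tried. Subtraction of the median was among them and cannot change a difference between arms. Subtracting the median gave 6.93% of fragments above 3 and 15.7% below -2, and fragments of 200 to 2000 bp alone gave 7.85% above 3. Counts moved with the definitions, as their construction implies. Runs above 3 numbered 1586 at a threshold of 2.5, 615 at 3.5, 1980 with at least 2 fragments and 404 with at least 5. Runs below -2 numbered 1374 at -2.5, 4376 with at least 2 fragments and 1074 with at least 5. Peaks numbered 391 with a mean over 11 fragments and 303 with a minimum height of 4. Missing stretches numbered 3455 from 2 kb, 181 from 10 kb and 1392 with 1 scored fragment bridged. Windows with few scores numbered 108 at 50 kb, 20 at 200 kb and 24 at the lower of the share limits tried. The neighbour correlation was 0.768 with no missing fragment between. The fat body share at glial scores over 4 (61.7%), whose alternatives were chosen after seeing the data, was 44.3% over all lengths, 64.7% without X, 76.9% for 500 to 2000 bp and 65.7% with the limit set 4 above the glial median. Of 45 alternatives, 22 stayed within the limits set for a change, which differed between levels, counts and shares. The 22 include the median subtraction for the offset of X, which could not move. In windows with few scores 12.2% of scores lay on the steps of small counts, against 5.81% in other windows. All of these steps lie between -2 and 3 by construction, so they say nothing about scores beyond these limits. The share on the steps also depends on how many scores fall near the middle of the range. The windows with few scores had the narrower spread (SD 1.61 against 1.99). Whether reads were few there was not tested.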

Other observations

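The heterochromatic scaffolds, which stand apart from the arms in release 5, were almost empty in the fat body. Of 25421 fragments there, 1350 (5.31%) had a score, with a median of -0.93, against 3.74% in brain and 15.0% in glia. The scaffold of X was the exception in level and coverage, with 97 of 632 fragments scored and a median of 0.45, while brain had -2.71 (38 fragments) and glia -0.78 (161 fragments) there. The 4 autosomal scaffolds had fat body medians of -0.99 to -0.95. On the scaffold of Y none of 780 fragments had a fat body score, which allows a share of up to 0.385% for counting error only, although the larvae were male. Brain had 10 scored fragments and glia 33 on the same scaffold. The heterochromatic values rest on few fragments and on no replicate.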
